A study of Saccharomyces cerevisiae with 8 samples.

Results

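The 9 genes described here, LYS1, LYS2, LYS4, LYS5, LYS9, LYS12, LYS14, LYS20 and LYS21, are the LYS-named genes of lysine synthesis in the budding yeast Saccharomyces cerevisiae: enzymes of the route, a factor that 1 of them needs and an activator. They were chosen by name, as every probe set annotated with 1 of these symbols, which gave 9 probe sets among 5498 for S. cerevisiae, or 9 genes of 5449. Each gene has 1 probe set, and all 9 genes passed the filter on low signals that 5439 genes passed. Messenger RNA was measured on 8 Affymetrix arrays, 2 per group. The groups were strain 6EA1 with RPL12B on a high copy plasmid (plus RPL12B), 6EA1 with RPL12A on such a plasmid (plus RPL12A), 6EA1 itself, which lacks both RPL12A and RPL12B (the double deletion), and the wild type W303. All 4 share the W303 background, and all were grown at 30 °C with 2% glucose to early log phase, at an A600 of 0.5 to 0.6. Each RPL12 gene codes for the ribosomal protein L12, part of the large subunit.

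3 features of the design bear on lysine genes in particular. The growth medium was made without amino acids and then supplemented with the nutrients required, each at 40 mg per liter. Whether lysine was among them, and whether every strain received the same ones, the labels do not say. The labels name no plasmid for the double deletion or the wild type, so carrying a plasmid and regaining an RPL12 gene cannot be told apart, and each genotype is represented by 1 strain. A culture is measured in bulk, so a change in a share of its cells and a change in every cell cannot be told apart either.

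Yeast makes lysine by the alpha-aminoadipate route, which starts from 2-oxoglutarate and acetyl-CoA and is found in fungi but not in plants or most bacteria. Homocitrate synthase opens the route and is inhibited by lysine, so the end product restrains its own synthesis. The activator Lys14 switches on the enzyme genes when the intermediate alpha-aminoadipate semialdehyde is present, which ties their transcription to flow through the pathway. The general activator Gcn4, which answers to amino acid shortage, acts on many of the same genes.

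On the scale as deposited, the 7 genes whose enzymes catalyse steps of the route fell in the double deletion relative to the wild type, and LYS5 and LYS14 rose. Only LYS20 and LYS5 passed the test on each of 4 scalings of the arrays. LYS1 and LYS12 turned sign when arrays were centred on hybridisation controls. LYS20 showed the largest fall of the 9 genes, about 2-fold (log2 difference -1.05), and LYS5 the largest rise (log2 difference 1.21). With either RPL12 plasmid, on the scale as deposited, the means of all 7 enzyme genes lay between those of the double deletion and the wild type, and so did the means of LYS5 and LYS14. None of these differences from the double deletion passed the test, and some of the smaller ones turned sign when arrays were scaled in other ways.

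The arrays follow their labels. RPL12A gave signals of 6079 and 5732 in plus RPL12A, against 28.8 and 6.88 in the double deletion. RPL12B gave 5469 and 6446 in plus RPL12B, against 17.3 and 1.71 in the double deletion. In the wild type RPL12A gave 5321 and 5269, and RPL12B gave 6537 and 7040. The gene not put back gave low signals, 48.5 and 20.1 for RPL12B in plus RPL12A and 8.18 and 15.5 for RPL12A in plus RPL12B. The background of an array, set by its probe sets for another yeast (Schizosaccharomyces pombe), was a signal of 7.42 to 8.72, and the 9 lysine genes ran from 310.5 to 6489, at least 39.4 times their array's background. Wild type means were 2655 to 6264 for the 7 enzyme genes, 315 for LYS5 and 1203 for LYS14. The highest signal of an array was 8564 and 8915 in the wild type, against 6841 and 7469 in the double deletion. The median over genes was 613 and 602 in the wild type, against 697 and 699 in the double deletion. Shares over all genes given below were not matched on signal. Whether signal level has a part in the differences was not tested. A control probe set for 25S ribosomal RNA stood at 148 to 312 on 3 arrays (replicate 2 of plus RPL12B, plus RPL12A and the wild type) and at 2476 to 5720 on the other 5. Whether that control has a part in the results was not tested beyond the fits named below.

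**Figure D1:**
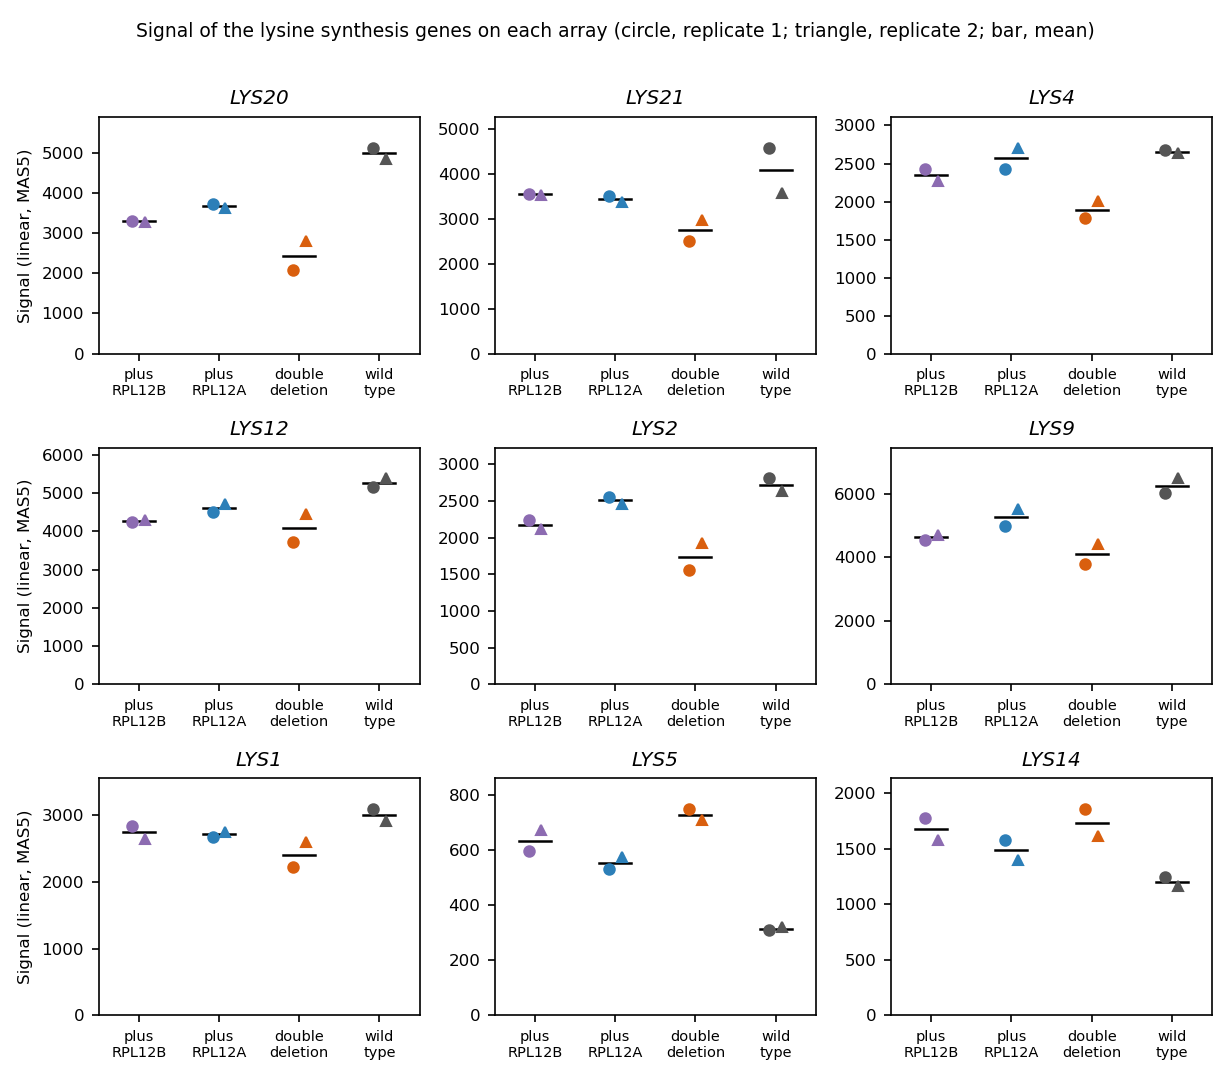
Signal on each array (linear MAS5 units, vertical axes from 0) for the 9 lysine synthesis genes in pathway order, with LYS5 and LYS14 last; circles are replicate 1, triangles replicate 2 and bars the mean of 2 arrays. In the 7 enzyme genes both double deletion arrays lie below both wild type arrays, and in LYS5 and LYS14 both lie above.

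Setting the double deletion against the wild type asks which genes differ when both RPL12 genes are lost. Differences are of log2 signals, the first group minus the second, with limma's standard error (SE) and its adjusted p, which is 2-sided, uses the Benjamini-Hochberg adjustment over all 5439 genes and counts as called under 0.05. All 9 genes were called, where 32.5% of all genes tested were. The 7 enzyme genes were called lower, where 12.2% of all genes were, and LYS5 and LYS14 were both called higher, where 20.4% of all genes were. No member overlapped between these groups: both double deletion arrays were below both wild type arrays for 7 genes and above them for 2, and over all genes these shares were 28.2% and 47.3%. The median log2 difference of the 9 genes was -0.49, and that of all genes tested was 0.14.

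LYS20 (YDL182W) and LYS21 (YDL131W) encode the homocitrate synthase isozymes, which carry out the opening step. They are close paralogs, and how far each probe set responds to the other gene's mRNA was not tested. LYS20 had signals of 2075 and 2802 in the double deletion, against 5118 and 4848 in the wild type, a log2 difference of -1.05 (SE 0.13, adjusted p = 0.00426, limma). The double deletion arrays lay well below the wild type arrays but also stood apart from each other, by 0.43 on the log2 scale, the widest gap between replicates of any of the 9 genes. LYS21 had 2519.9 and 2983 in the double deletion, against 4588 and 3591 in the wild type, a log2 difference of -0.57 (SE 0.13, adjusted p = 0.0175, limma). Its wild type arrays were the most spread of that group, and the groups still did not overlap.

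LYS4 (YDR234W) encodes homoaconitase and LYS12 (YIL094C) homoisocitrate dehydrogenase, the mitochondrial enzymes that follow. LYS4 gave 1785 and 2002 in the double deletion, against 2676 and 2635 in the wild type (log2 difference -0.49, SE 0.09, adjusted p = 0.0112, limma). LYS12 gave 3727 and 4451 in the double deletion, against 5169.9 and 5386 in the wild type (log2 difference -0.37, SE 0.09, adjusted p = 0.0197, limma). Both genes were thus lower by less than LYS20 was.

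LYS2 (YBR115C), LYS9 (YNR050C) and LYS1 (YIR034C) encode the enzymes of the last steps: alpha-aminoadipate reductase and the saccharopine dehydrogenases, of which Lys9 forms saccharopine and Lys1 releases lysine from it. LYS2 gave 1561 and 1919 in the double deletion, against 2804 and 2633 in the wild type (log2 difference -0.65, SE 0.11, adjusted p = 0.00845, limma). LYS9 gave 3785 and 4432 in the double deletion, against 6039 and 6489 in the wild type (log2 difference -0.61, SE 0.09, adjusted p = 0.00642, limma). LYS1, whose product finishes the route, differed least of the 9 genes, with 2219 and 2607 in the double deletion, against 3095 and 2921 in the wild type (log2 difference -0.32, SE 0.09, adjusted p = 0.0383, limma).

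LYS5 (YGL154C) and LYS14 (YDR034C) were the members that rose. LYS5 encodes the phosphopantetheinyl transferase that attaches the cofactor Lys2 needs to work, so it serves the pathway without catalysing a step of it. Its signals were 749 and 708 in the double deletion, against 310.5 and 319 in the wild type, a log2 difference of 1.21 (SE 0.12, adjusted p = 0.00257, limma). LYS14, the pathway's transcriptional activator, gave 1858 and 1614 in the double deletion, against 1243 and 1164 in the wild type, a log2 difference of 0.53 (SE 0.12, adjusted p = 0.0175, limma). On the scale as deposited, the activator's mRNA and the mRNAs of the 7 enzyme genes therefore differed in opposite directions between the same arrays. When arrays were centred on hybridisation controls, LYS1 (0.07) and LYS12 (0.02) had the same sign as LYS14 (0.92).

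**Figure D2:**
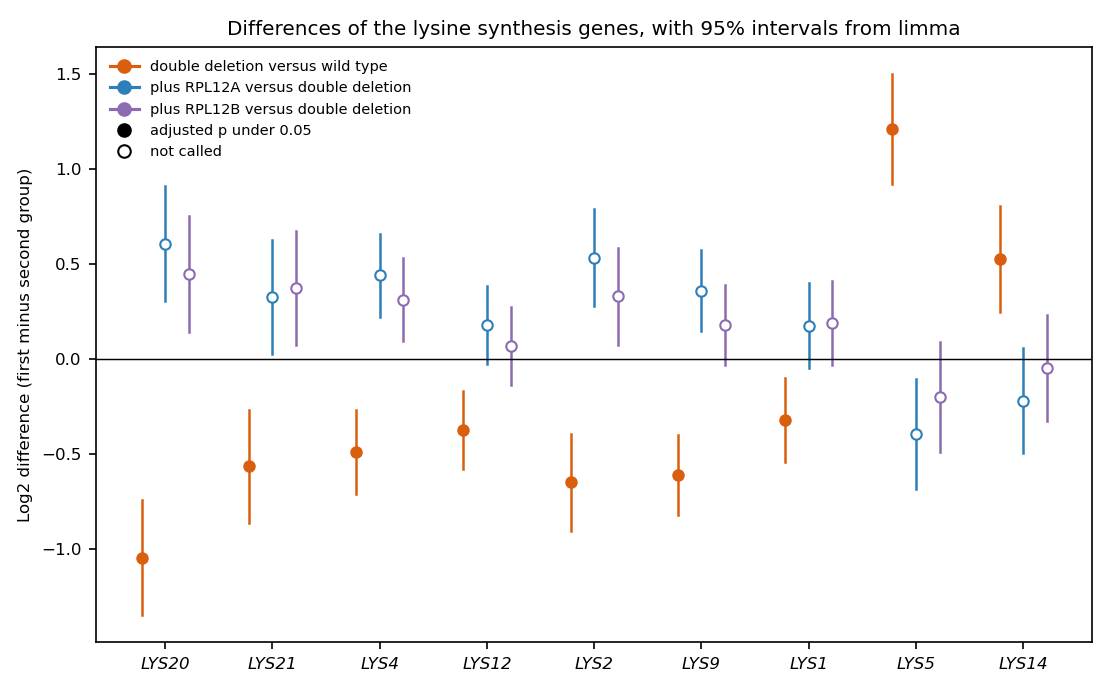
Log2 differences (vertical axis, first group minus second) of the 9 genes in 3 comparisons, each with limma's 95% interval; filled points were called at an adjusted p under 0.05. For the double deletion against the wild type 7 points lie below 0 and 2 above, and each plasmid strain against the double deletion has its points on the other side of 0 on this, the deposited, scale, all of them open (LYS12 and LYS14 in plus RPL12B cross 0 on other scales).

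LYS20 and LYS5 held best when the processing was changed. Both were called under each of 23 other settings tried, with log2 differences of -1.26 to -0.65 for LYS20 and 0.93 to 1.60 for LYS5. LYS9 was called under 21 of these settings, LYS2 under 20, LYS21 under 18, LYS4 and LYS14 under 17 each, LYS12 under 15 and LYS1 under 13. Several settings left each difference as it was and could alter a call only through the spread or the adjustment. Among them were the filters, background as a floor, the mean of a gene's probe sets and leaving out a plasmid strain's array. These counts are therefore not counts of independent checks. A setting chosen after seeing the data kept only arrays whose 25S signal was high (5 arrays, 1 of them wild type), which leaves 1 residual degree of freedom. It called LYS2, LYS5, LYS9, LYS20 and LYS21, and since its differences are those found without wild type replicate 2, it adds no separate support. With the 25S split as a block in a fit of all arrays, all 9 genes were called. That fit called 1397 of the 5439 genes tested higher and 782 lower, more than the main fit did.

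Several of the calls in this comparison depended on single arrays. Leaving out any array of either group lowered the number of calls over all genes as well. The median log2 difference of the 9 genes was -0.40 without wild type replicate 1 and -0.50 without wild type replicate 2. Without wild type replicate 1 the called genes were LYS5, LYS9 and LYS20, with the lost genes at adjusted p values up to 0.173. Without wild type replicate 2 they were LYS5, LYS20 and LYS21, with the lost genes at up to 0.115. Without double deletion replicate 1 they were LYS2, LYS5, LYS9 and LYS20, with the lost genes at up to 0.191 (limma, each time). That array was the lowest of all 8 for each of the 7 enzyme genes, and without it LYS20 stood at -0.83 and the median of the 9 genes at -0.41. LYS1 also lost its call without either plus RPL12A array (adjusted p = 0.0573 and 0.0572, limma), since all arrays share in the estimate of the spread.

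The size of the differences depended on how the arrays were scaled. The all-gene median of 0.14 given above became -0.06 when arrays were centred on their S. cerevisiae median, -0.0032 under quantile normalization, and 0.54 when they were centred on 18 hybridisation control probe sets. LYS20, at -1.05 as deposited, stood at -1.25 under median centring, -0.85 under quantile normalization and -0.65 under hybridisation control centring. With quantile normalization LYS1 (-0.18), LYS12 (-0.11) and LYS21 (-0.36) were not called. Of all 5439 genes 393 were called higher and 427 lower on that scale. With hybridisation control centring LYS20 was the only enzyme gene still called, where 65 of all 5439 genes were called lower and 2776 higher. LYS1 (0.07) and LYS12 (0.02) turned sign with this centring. The median of the 9 genes lay below that of all genes on each scale, by 0.63 on the deposited scale (the centred scales move all genes alike) and by 0.34 with quantile normalization. LYS14 was not called after median centring (0.32, adjusted p = 0.0591, limma).

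**Figure D3:**
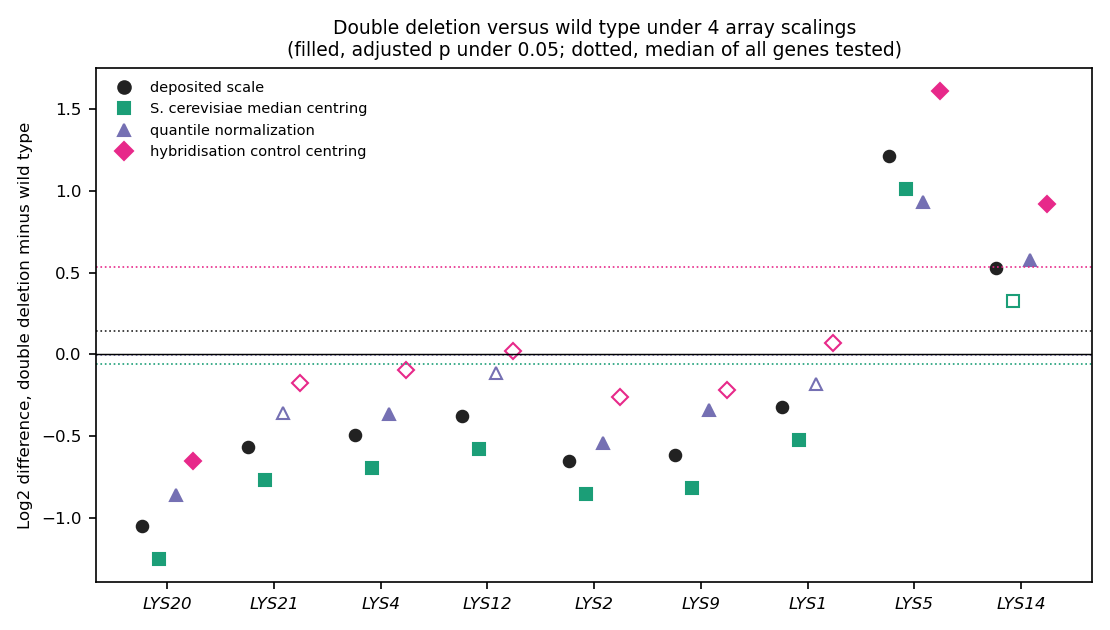
Log2 difference of the double deletion from the wild type (vertical axis) for each gene under 4 scalings of the arrays; filled symbols have an adjusted p under 0.05 and dotted lines mark the median of all genes tested on each scale. LYS20 and LYS5 are filled on each scale, while LYS1 and LYS12 cross 0 with hybridisation control centring.

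Plus RPL12A against the double deletion asks which genes change once 1 lost gene is put back. The 7 enzyme genes had higher means in plus RPL12A, by 0.18 (LYS1) to 0.61 (LYS20) on the log2 scale, and LYS5 and LYS14 lower means. Both plus RPL12A arrays lay above both double deletion arrays for the 7 enzyme genes and below them for LYS5 and LYS14; over all genes these shares were 17% and 34.5%. Of the 9 genes 0 were called, where 0.221% of all genes were called, and 6 had an unadjusted p under 0.05, where 15.7% of all genes did (limma). LYS20 had signals of 3732 and 3614 in plus RPL12A, against 2075 and 2802 in the double deletion, a log2 difference of 0.61 with a 95% interval of 0.30 to 0.91 (adjusted p = 0.198, limma). LYS2 had 2548 and 2462 in plus RPL12A, against 1561 and 1919 in the double deletion (log2 difference 0.53, interval 0.28 to 0.79, adjusted p = 0.197, limma). LYS4 had 2427 and 2707 in plus RPL12A, against 1785 and 2002 in the double deletion (log2 difference 0.44, interval 0.22 to 0.66, adjusted p = 0.198, limma). These intervals leave out 0, but they hold for 1 gene at a time.

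The other members moved less between these groups. LYS9 differed by 0.36 and LYS21 by 0.33, while the intervals of LYS12 (-0.03 to 0.39) and LYS1 (-0.05 to 0.40) include 0. LYS5 gave 532 and 577 in plus RPL12A, against 749 and 708 in the double deletion (log2 difference -0.39, interval -0.68 to -0.10, adjusted p = 0.249, limma). LYS14 gave 1583 and 1397 in plus RPL12A, against 1858 and 1614 in the double deletion, so the arrays were close to touching (log2 difference -0.22, interval -0.50 to 0.06). Leaving out double deletion replicate 2 raised LYS20 to 0.82 and brought its adjusted p to 0.0337 (limma); leaving out double deletion replicate 1 lowered it to 0.39.

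Plus RPL12B was set against the same double deletion arrays. On the scale as deposited the 7 enzyme genes had higher means in plus RPL12B, by 0.07 (LYS12) to 0.45 (LYS20), and the groups of arrays did not overlap for 6 of them, where 12.3% of all genes had both arrays above. LYS5 had both arrays below, where 25.7% of all genes did. Of the 9 genes 0 were called, where 0.11% of all genes were called, and 4 had an unadjusted p under 0.05, where 7.21% of all genes did (limma). LYS20 had 3305 and 3269 in plus RPL12B, against 2075 and 2802 in the double deletion (log2 difference 0.45, interval 0.14 to 0.75, adjusted p = 0.642, limma). LYS21 had 3554 and 3546 in plus RPL12B, against 2519.9 and 2983 in the double deletion (log2 difference 0.37, interval 0.07 to 0.67, adjusted p = 0.642, limma). The arrays of LYS12 and LYS14 overlapped between these groups. LYS12 had 4237 and 4311 in plus RPL12B, against 3727 and 4451 in the double deletion, and LYS14 had 1778 and 1578 in plus RPL12B, against 1858 and 1614 in the double deletion (log2 difference -0.05). LYS12 turned sign under quantile normalization (-0.02), under hybridisation control centring (-0.09) and without double deletion replicate 1 (-0.06), LYS14 turned to 0.04 under median centring, and LYS9, at 0.18, stood at 0.01 under hybridisation control centring. Without double deletion replicate 1 the difference of LYS20 was 0.23, and without replicate 2 it was 0.66.

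Both plasmid strains are set against the same double deletion arrays here, so their differences from it are not independent. Compared with each other, plus RPL12B and plus RPL12A differed by -0.20 (LYS2) to 0.19 (LYS5) on the log2 scale. Of the 9 genes 0 were called and 0 had an unadjusted p under 0.05, where 0.0184% and 1.71% of all genes did (limma). LYS20 had 3305 and 3269 in plus RPL12B, against 3732 and 3614 in plus RPL12A (log2 difference -0.16, interval -0.46 to 0.14). LYS5 had 595 and 674 in plus RPL12B, against 532 and 577 in plus RPL12A (log2 difference 0.19, interval -0.10 to 0.48). Both arrays of plus RPL12B were below both of plus RPL12A for LYS2, LYS4, LYS9, LYS12 and LYS20 and above them for LYS5 and LYS21, where 8.4% and 11.6% of all genes were.

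Set against the wild type on the scale as deposited, each plasmid strain had a smaller mean difference than the double deletion in all 9 genes. That did not hold for every gene on other scales. Under hybridisation control centring LYS1 was at 0.10 in each plasmid strain and 0.07 in the double deletion. LYS4 was then at 0.19 in plus RPL12A and -0.10 in the double deletion. LYS12 was at -0.07 in plus RPL12B, 0.05 in plus RPL12A and 0.02 in the double deletion. Under quantile normalization LYS12 was at -0.14 in plus RPL12B and -0.11 in the double deletion. Under median centring LYS14 was at 0.36 in plus RPL12B and 0.32 in the double deletion. Both plus RPL12B arrays lay below both wild type arrays for the 7 enzyme genes, where 25% of all genes did, and above them for LYS5 and LYS14, where 35.3% did. In plus RPL12B 4 of the 9 genes were called, where 9.49% of all genes were: 2 lower, where 3.9% were, and 2 higher, where 5.59% were. LYS20 averaged 3287 ± 25.1 in plus RPL12B and 4983 ± 191 in the wild type (SD, n = 2 arrays each; log2 difference -0.60, adjusted p = 0.0372, limma across all genes). LYS9 averaged 4634 ± 106 in plus RPL12B and 6264 ± 319 in the wild type (log2 difference -0.43, adjusted p = 0.0350, limma). LYS5 had 595 and 674 in plus RPL12B, against 310.5 and 319 in the wild type (log2 difference 1.01, adjusted p = 0.0116, limma), close to double its wild-type level. LYS14 averaged 1678 ± 142 in plus RPL12B and 1203 ± 56.4 in the wild type (log2 difference 0.48, adjusted p = 0.0496, limma). These 4 calls fell to 0 without either wild type array and without plus RPL12B replicate 2, and to LYS5 alone without plus RPL12B replicate 1 or either plus RPL12A array. Without either double deletion array LYS14 lost its call and LYS12 gained one.

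In plus RPL12A against the wild type, LYS5 was the 1 gene called of the 9, where 3.97% of all genes were called, 2.22% higher and 1.75% lower. Both plus RPL12A arrays lay below both wild type arrays for 6 enzyme genes, where 25.6% of all genes did, and above them for LYS5 and LYS14, where 33.3% did. It had 532 and 577 in plus RPL12A, against 310.5 and 319 in the wild type (log2 difference 0.82, SE 0.12, adjusted p = 0.0244, limma). That call was lost without any 1 of the wild type, plus RPL12A or double deletion arrays, with adjusted p values up to 0.190 (limma), while its log2 difference stayed between 0.76 and 0.87. LYS20 had 3732 and 3614 in plus RPL12A, against 5118 and 4848 in the wild type (log2 difference -0.44, interval -0.74 to -0.14, adjusted p = 0.0982, limma), and was called without either double deletion array. LYS4 came closest to its wild-type level, with 2427 and 2707 in plus RPL12A, against 2676 and 2635 in the wild type (log2 difference -0.05, interval -0.27 to 0.17).

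The order of the group means was nearly the same across the pathway. For the 7 enzyme genes the double deletion had the lowest mean and the wild type the highest, and plus RPL12A stood above plus RPL12B in 5 of them. For LYS1 and LYS21 plus RPL12B had the higher mean of the plasmid strains. LYS5 and LYS14 ran the other way, from the double deletion as the highest through plus RPL12B and plus RPL12A to the wild type. Neighbours in this order did not pass the test except plus RPL12A above the wild type for LYS5.

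Across the 8 arrays the log2 signals of the enzyme genes moved together. Pearson's r ranged from 0.75 to 0.98 over the 21 pairs of enzyme genes, was 0.88 between LYS5 and LYS14, and ranged from -0.96 to -0.67 over the 14 pairs that join an enzyme gene with LYS5 or LYS14. These are descriptions over 8 arrays that share 4 genotypes and a common scaling per array. The gap between the double deletion arrays, replicate 1 below replicate 2, had the same sign in 7 of 7 enzyme genes. Over all genes the median of replicate 2 minus replicate 1 was -0.02 there. The 7 genes moved together on the same arrays, so they are not 7 separate observations. The median absolute gap between the double deletion arrays was 0.23 over the 9 genes, against 0.15 over all genes. In the plus RPL12B, plus RPL12A and wild type groups the median absolute gaps of the 9 genes were 0.08, 0.07 and 0.08, below those of all genes (0.21, 0.17 and 0.12).

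The isozymes LYS20 and LYS21 were set against each other within each array, which shows unequal change but not which gene changed. LYS20 minus LYS21 on the log2 scale was -0.10 and -0.12 in plus RPL12B, 0.09 and 0.10 in plus RPL12A, -0.28 and -0.09 in the double deletion and 0.16 and 0.43 in the wild type. Probe sets respond differently to their targets, so only differences between arrays are read from these values, not their sign. All plus RPL12B and double deletion arrays lay below all plus RPL12A and wild type arrays, a grouping seen in the values and not tested. The means differed by -0.48 between the double deletion and the wild type and by -0.21 between plus RPL12B and plus RPL12A, and an exact 2-sided permutation test gave p = 0.333 for each, the smallest p that 2 arrays against 2 allow.

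**Figure D4:**
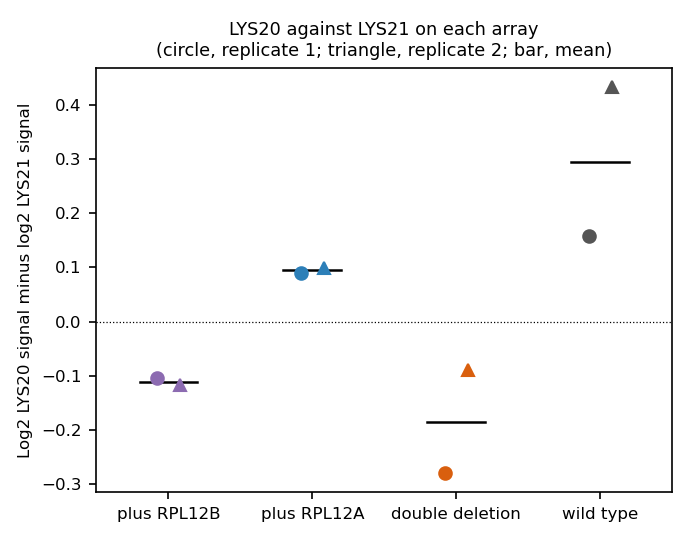
Log2 signal of LYS20 minus log2 signal of LYS21 on each array (vertical axis), by group; circles are replicate 1, triangles replicate 2 and bars the mean of 2 arrays. The 4 arrays of plus RPL12B and the double deletion lie below the 4 arrays of plus RPL12A and the wild type, a grouping that was not tested.

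Of 8 other genes of the pathway and its control, 7 were tested. Between the double deletion and the wild type 2 were called lower, where 12.2% of all genes were, and 1 higher, where 20.4% were. ODC2, a mitochondrial carrier of 2-oxoadipate, which leaves the mitochondrion in the middle of the route, averaged 1843 ± 189 in the double deletion and 3825 ± 45.4 in the wild type (SD, n = 2 arrays each; log2 difference -1.06, adjusted p = 0.00447, limma across all genes). That log2 difference is close to the one of LYS20. ARO8, an aminotransferase that turns 2-oxoadipate into alpha-aminoadipate as well as acting on aromatic amino acids, differed by -0.59 (adjusted p = 0.00418, limma), and its paralog ARO9, which is known for aromatic amino acid breakdown, by 1.18 (adjusted p = 0.00255, limma). ODC1, MKS1, RTG2 and CCS1 were not called. Of these 7 genes 0 were called in plus RPL12A or plus RPL12B against the double deletion, where 0.221% and 0.11% of all genes were. ODC2 differed there by 0.57 and 0.53 and ARO8 by 0.43 and 0.28.

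Of 12 genes listed for lysine transport and loading 11 were tested, and between the double deletion and the wild type 2 were called higher, where 20.4% of all genes were, and 2 lower, where 12.2% were, with a median log2 difference of -0.09. VBA2, a vacuolar transporter of basic amino acids, differed by 1.17 and the arginine permease gene CAN1 by 0.66, while KRS1, the cytosolic lysyl-tRNA synthetase, differed by -0.38 and VBA1, another vacuolar transporter, by -0.36. The lysine permease gene LYP1, named here after its values were seen, averaged 2642 ± 262 in the double deletion and 2314 ± 104 in the wild type (log2 difference 0.19, interval -0.04 to 0.41, adjusted p = 0.170, limma). Among 11 genes listed for supply of 2-oxoglutarate, the compound from which the route starts, 3 were called higher and 4 lower. The list also holds regulators and genes whose enzymes use the compound, so these counts do not describe its supply alone. Over all genes 20.4% were called higher and 12.2% lower. The median log2 difference of these 11 genes was 0.33. RTG1 and RTG3, the partner activators of the retrograde response, differed by 1.70 and 0.54, GDH2, which forms 2-oxoglutarate from glutamate, by 0.64, and IDP1, the mitochondrial isocitrate dehydrogenase that uses NADP, by -0.41.

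The mRNA of the general activator was not among the called genes. GCN4 averaged 5129 ± 181 in the double deletion and 5459 ± 60.5 in the wild type (SD, n = 2 arrays each; log2 difference -0.09, interval -0.23 to 0.05, adjusted p = 0.271, limma). Gcn4 is controlled mainly through translation of its mRNA, which arrays do not measure. Of the 6 genes of general control 1 was called, GCN20, higher by 0.28, where 20.4% of all genes were called higher. PCL5, a cyclin needed for Gcn4 breakdown, differed by -0.67 without being called (interval -1.40 to 0.07).

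Genes for other amino acids were counted for comparison with the 9 lysine genes. Between the double deletion and the wild type 7 lysine genes were called lower and 2 higher. Over all genes 12.2% were called lower and 20.4% higher. Of 7 tested arginine genes 3 were called lower and 0 higher, with a median log2 difference of -0.66 and ARG1 at -1.24. Of 11 aromatic synthesis genes 8 were lower and 0 higher, with a median of -0.54 and ARO2 at -0.94. Of 6 histidine genes 2 were lower and 0 higher (median -0.27, HIS1 at -0.68), and of 10 genes for leucine, isoleucine and valine 3 were lower and 1 higher (median -0.17, ILV6 at -0.71). Whether lysine differed from these pathways was not tested. In plus RPL12A against the double deletion, 2 aromatic genes, ARO4 (0.61) and ARO3 (0.57), and 1 arginine gene, ARG1 (0.72), were called higher. Over all genes 0.221% were called higher there. LYS20, at 0.61, was not called. The SE was 0.13 for LYS20 and 0.05 for ARO4.

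**Figure D5:**
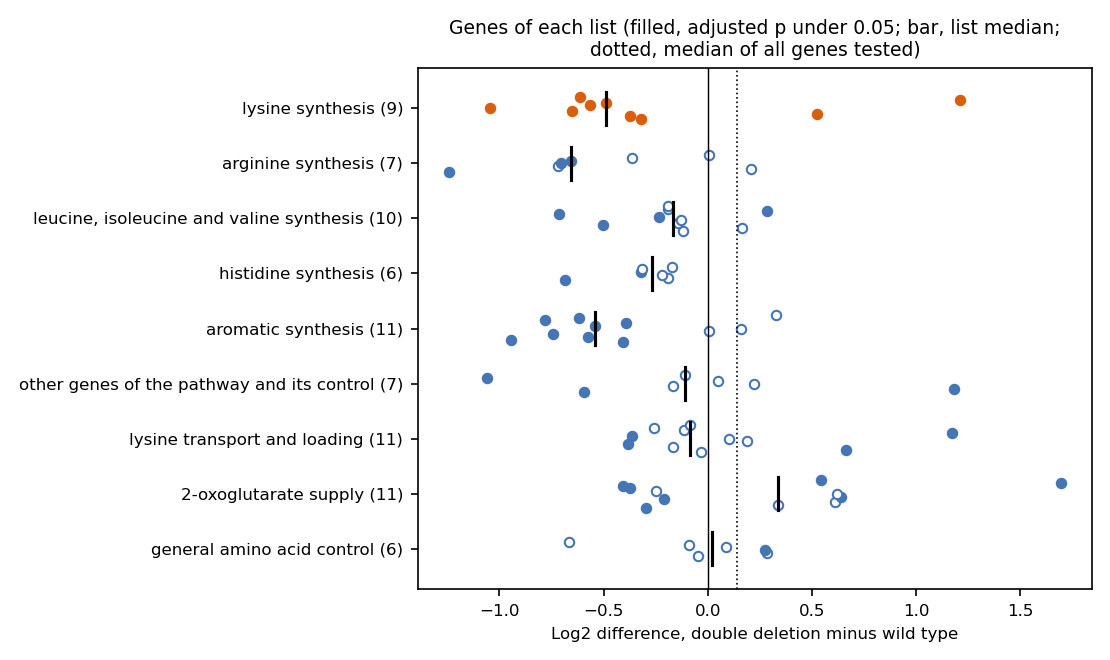
Log2 difference of the double deletion from the wild type (horizontal axis) for each tested gene of 9 lists, 1 row per list with the number of genes in brackets; filled points have an adjusted p under 0.05, bars are list medians and the dotted line is the median of all genes tested, 0.14. The lysine row holds 9 filled points, 7 to the left of 0 and 2 to the right.

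The 8 genes outside the pathway whose log2 signal over the 8 arrays was most like the mean of the 9 lysine genes were YHR020W, a prolyl-tRNA synthetase gene (r = 0.98), NUG1, NOP13, NOP7, VTC2, HIS1, DBP3 and NOP58 (r = 0.95 for the last). LYS5 and LYS14, which enter that mean, correlated with it at -0.70 and -0.71. The double deletion differed from the wild type by -0.70 in NOP13, -0.68 in NOP7 and -0.68 in HIS1. YHR020W itself differed by -0.28, less than any lysine enzyme gene.

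Genes beside the members on the chromosome were examined in the RefSeq annotation of the reference strain, after the members' values were known. Of 18 neighbouring protein-coding genes 15 were tested, and between the double deletion and the wild type 3 were called higher, where 20.4% of all genes were, and 0 lower, with a median log2 difference of 0.28. Both neighbours of LYS5 were tested, CDC43 (0.33) and PEX14 (-0.09), and neither was called while LYS5 rose by 1.21. INH1, the tested neighbour of LYS20, differed by 0.39 without a call.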

How the data were processed

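Signals were deposited as 1 linear intensity per probe set and array, made by the authors with MAS5 per the submitters' processing notes, from biotin-labelled cRNA of 10 ug total RNA, with no version stated. Each array had a 2% trimmed mean of 500.2. Probe sets were named from the platform's annotation and updated through RefSeq (R64), without coordinates; a gene with several probe sets took the one with the highest mean log2 signal. Genes had to exceed, on 2 or more arrays, the 95th percentile of that array's 1746 S. pombe signals.

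Log2 signals were fitted with limma 3.58.1 in R 4.3.3 (lmFit, eBayes with intensity trend) as 4 group means over all 8 arrays, with 4 residual and 3.23 prior degrees of freedom, for 6 comparisons. The procedure was also run on simulated data, with noise drawn independently for each array from the fitted spread. Those data lack the deviations that same-numbered arrays had in common, so that run says nothing about their effect. Figures used Python 3.11.15 and matplotlib 3.10.9. Replicates are titled biological; the number of arrays limits the precision. The members, gene lists, tests and alternatives were chosen with earlier results of these data known; the fit to 5 arrays, chosen by their 25S signal, was added after seeing the data. Named genes were all members, up to 4 per list (largest differences, called genes first) and the 8 most like the members. The other settings were the scalings, 16 added to each signal, background as a floor, all genes unfiltered or the 99th percentile, the mean of a gene's probe sets, no trend or robust variances, the 4 compared arrays alone, blocks by replicate number or 25S signal, a threshold of 0.01 and leaving out each array. No sequences are printed.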

Additional observations from a re-analysis of the deposited data

How the results depend on the processing

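The 9 calls between the double deletion and the wild type became 3 with hybridisation control centring, 4 at a threshold of 0.01, 5 on the 5 arrays of high 25S signal and 3 to 9 with 1 array left out. Their median log2 difference of -0.49 was -0.69 under median centring and -0.10 under hybridisation control centring, where LYS1 (0.072) and LYS12 (0.021) reversed, and -0.57 to -0.40 with 1 array left out. For plus RPL12A against the double deletion, 0 calls became 1 (LYS9, 0.36, adjusted p = 0.0441, limma) with the replicate number as a block and 0 to 1 with 1 array left out. For plus RPL12B against the double deletion, 0 members were called under any setting tried, and the median of 0.19 was 0.28 under median centring, 0.13 under quantile normalization, 0.025 under hybridisation control centring and 0.073 to 0.31 with 1 array left out. The 1 call of plus RPL12A against the wild type became 2 under hybridisation control centring or the replicate block, 0 under quantile normalization or at 0.01, and 0 to 1 with 1 array left out. On the 4 compared arrays alone the 1 call was LYS20 (-0.44, adjusted p = 0.0470, limma) in place of LYS5. The median of plus RPL12A against the wild type, -0.15, was -0.22 under median centring, -0.077 under quantile normalization and 0.099 under hybridisation control centring. With 1 array left out it was -0.168 to -0.072. The 4 calls of plus RPL12B against the wild type became 1, LYS5, under quantile normalization or without the trend. On the 4 compared arrays alone the 1 call was LYS20 (adjusted p = 0.0443, limma), and LYS5 was lost (adjusted p = 0.0653, limma). At 0.01 there were 0 calls, and with 1 array left out the number did not rise. LYS12 was gained with the replicate block (-0.30, adjusted p = 0.0247, limma), the 25S block (adjusted p = 0.0464) and median centring (adjusted p = 0.0359). LYS2 was gained with median centring (adjusted p = 0.0403). The median of plus RPL12B against the wild type, -0.19, was -0.31 under median centring, -0.097 under quantile normalization and 0.037 under hybridisation control centring. With 1 array left out it was -0.275 to -0.168. The median of plus RPL12B against plus RPL12A, -0.11, was -0.026 under quantile normalization and -0.137 to -0.049 with 1 array left out. The cause of these changes was not tested, except that fewer arrays leave fewer degrees of freedom. Over all genes, the double deletion against the wild type gave 1109 higher and 661 lower calls, 548 and 1206 under median centring, 393 and 427 under quantile normalization, 2776 and 65 under hybridisation control centring, 125 and 113 without double deletion replicate 1, and 263 and 186 at 0.01. Of 1197 values of single members under other settings, 86 lost a call with their direction kept, 2 (those of LYS1 and LYS12 above) lost it and reversed, 13 gained a call, and 21 called under neither setting changed sign. Nothing in the labels says that replicate numbers pair arrays; same-numbered arrays deviated from their group means with r = 0.05 to 0.79 across genes over the 6 pairs of groups. The replicate block gave 1500 higher and 863 lower calls for the double deletion against the wild type, and 68 higher and 11 lower, in place of 12 and 0, for plus RPL12A against the double deletion.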
